A study of Arabidopsis thaliana with 18 samples.

Results

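Polysome loading in gcn2 seedlings was measured as the difference between polysomal and non-polysomal RNA. The comparison used the 3 arrays whose titles name the gcn2 polysome fraction and the 3 that name the gcn2 non-polysome fraction, 6 of the 18 arrays in all, and each polysomal array was paired with the non-polysomal array of the same replicate number. All seedlings were Arabidopsis thaliana of the laboratory strain Landsberg erecta, aged 10 days. The medium held 0.8% agar and 1% sucrose, the temperature was 22 °C, and the daily light period lasted 16 h with 80 µmol of photons per m2 each second. The aerial organs were collected 4 h into that period. Their lysates were spread on sucrose gradients, of which the 6 bottom fractions were pooled as polysomal RNA and the 6 top fractions as non-polysomal RNA. Each of the 2 fraction groups of gcn2 and of wild type held 3 arrays, and 3 arrays of gcn2 total RNA were set beside them. The mutant groups are labelled gcn2 with no allele, and the pools do not tell how many ribosomes a transcript carried. The genotype labels were not checked against a transcript, since neither GCN2 nor the erecta gene was analysed here.

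A transcript under active translation carries several ribosomes at once and sediments to the bottom of a sucrose gradient, whereas free transcripts and those bound to single ribosomal subunits stay near the top. The protein kinase GCN2 phosphorylates the initiation factor eIF2alpha when uncharged transfer RNA accumulates, which lowers initiation on most transcripts. Its best known use in plants is the response to blocked amino acid synthesis and other stresses, and the labels name no such treatment here. Transcripts made inside plastids and mitochondria are translated by the ribosomes of those organelles and not by cytosolic ones.

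The values were log2 signals of Affymetrix ATH1 arrays, on which each gene is read by a set of short probes. Of 22810 probe sets, 64 controls were left out and 22746 were tested. The signals of the 6 gcn2 fraction arrays ran from 1.73 to 14.21 and their medians from 5.05 to 5.18, and arrays of the same fraction correlated at 0.974 to 0.991 across probe sets. Precision is limited by the number of arrays. Nothing in the labels says that the 3 replicates came from separate cultures, so the p-values reflect only how far these samples spread, which may be technical. All 6 measured markers of green aerial tissue were above the lower quartile of signal in gcn2 total RNA, with medians of 12.26 to 12.44 per array. Of 5 root markers, PYK10 stood at 10.99 and the others at 2.43 to 4.33, and the 4 markers of flower organs and pollen stood at 2.44 to 4.72, where the lower quartile of the fraction arrays averaged 3.40. None of 14 seed markers was measured by a probe set with 1 annotated gene. Because whole aerial parts were lysed, fewer cells of a type and less RNA per cell cannot be told apart.

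Signs of array quality differed between the fractions. The BioB and BioC hybridization controls, which are bacterial transcripts, stood at 9.31 ± 0.21 in polysomal, 10.16 ± 0.21 in non-polysomal and 8.97 ± 0.32 in total RNA of gcn2 (SD, n = 3 each), and the non-polysomal array was the higher one in each of the 3 gradients. The excess of 3′ over 5′ signal, averaged over 6 pairs of probe sets for Actin, GAPDH and ubiquitin transcripts, was 2.99 ± 0.28, 3.72 ± 0.42 and 2.22 ± 0.05 in the same order (SD, n = 3 each). Their part in the differences described here was not tested.

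Loading, the polysomal minus the non-polysomal log2 signal, asks which transcripts of gcn2 lay toward the ribosome-rich end of the gradient. CLPP4, part of the proteolytic core of the Clp protease in plastids, and the dehydrin LTI30 were among the nuclear loci with a symbol that had the largest positive loading. The drought-induced DI21 and DI19 were among those with the largest negative loading. Plastid-encoded and mitochondrion-encoded transcripts lay almost wholly on the negative side. Most histone, autophagy, photosystem and amino acid synthesis transcripts of the nucleus that were found by symbol or synonym were on the positive side.

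In the paired limma fit, 8516 of the 22746 probe sets passed an adjusted p of 0.05, which is 37.4%. Of these, 4399 (19.3%) were higher and 4117 (18.1%) lower in polysomal RNA, and 10110 had an unadjusted p under 0.05. Differences of at least 2-fold were found for 1153 higher (5.07%) and 855 lower (3.76%) probe sets, and of at least 4-fold for 48 higher and 109 lower ones. The polysomal and non-polysomal arrays did not overlap for 4384 higher (19.3%) and 4260 lower (18.7%) probe sets. Across all probe sets the median loading was −0.04, the middle part between the quartiles ran from −0.26 to 0.24, and the median was −0.06, 0.01 and −0.02 in the 3 gradients.

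The deposited arrays had nearly equal medians, so loading is read relative to the array-wide level and says nothing of how much RNA each pool held. When the arrays were centred on the BioB and BioC controls instead, the median loading moved from −0.04 to 0.81, and the calls split into 19186 higher and 453 lower. Negative values smaller in size than this shift change sign under that scaling by construction. The directions below are relative to the array-wide level.

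Among nuclear loci with a symbol whose arrays did not overlap, CLPP4 and PDF1B had the largest positive loading. CLPP4 (AT5G45390) had polysomal signals of 10.38, 10.32 and 10.12 and non-polysomal signals of 8.05, 8.34 and 7.85. All polysomal values lay above all non-polysomal ones, with a loading of 2.19 (SE 0.14, n = 3 gradients, limma adjusted p = 6.75e-09), a 4.57-fold difference. PDF1B (AT5G14660), a peptide deformylase that trims new organelle proteins, had signals of 7.34, 7.51 and 7.64 against 5.12, 5.31 and 5.61. Its groups were likewise apart, by 2.15 (SE 0.14, limma adjusted p = 1.34e-08). MAP1C, a methionine aminopeptidase that acts after the deformylase, had a loading of 1.68 (SE 0.15). Of 10 measured genes for Clp and FtsH proteases and organelle protein maturation, 5 were higher and 0 lower, with a median of 0.44. Without replicate 2, 3 were higher and 1 lower. Of all 13355 loci, 16.1% were higher and 18% lower. List members were found by symbol or synonym, and of nuclear loci with a symbol 26.0% were higher and 16.3% lower. These last shares are the closer background for this list and the nuclear lists below.

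The 14 largest positive values among such loci also held genes of several other functions. ISU1, a mitochondrial scaffold for iron-sulfur clusters, had a loading of 1.72 (SE 0.13), FRO1, a subunit of mitochondrial complex I, 1.74 (SE 0.13), and CHLI2, a subunit of the magnesium chelatase of chlorophyll synthesis, 1.71 (SE 0.19). CHLI2 was more variable than the others, with differences of 1.15, 1.69 and 2.28 in the 3 gradients. Y14, a core protein of the exon junction complex, stood at 1.78 (SE 0.13) and VPS24.1, a membrane-scission protein of the ESCRT machinery, at 1.68 (SE 0.15). CYS1 (AT5G12140), an inhibitor of cysteine proteases, had polysomal signals of 10.27, 10.12 and 9.72 and non-polysomal ones of 8.54, 8.38 and 7.14. Its arrays did not overlap, and the loading of 2.02 (SE 0.16, limma adjusted p = 8.99e-08) was largest in gradient 3, at 2.59.

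Thiol and peroxide enzymes followed the same side. PRXIIF (AT3G06050), the mitochondrial peroxiredoxin, had signals of 9.49, 9.47 and 9.17 in polysomal and 7.50, 7.37 and 7.42 in non-polysomal RNA. The groups were apart by 1.95 (SE 0.13, limma adjusted p = 1.22e-08). TRXF2, a plastid thioredoxin that activates enzymes of carbon fixation, stood at 1.63 (SE 0.12), the glutaredoxin GRXC2 at 1.54 (SE 0.13) and TO1, a mitochondrial thioredoxin, at 1.27 (SE 0.13). Of 22 measured reactive oxygen and redox enzymes, 13 were higher and 1 lower, against 16.1% and 18% of all loci, and their median was 0.68. The medians in the 3 gradients were 0.64, 0.69 and 0.66, so the gradients hardly differed. Without replicate 1 or without the replicate block, the count of lower members was 0.

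Dehydrins and cold-regulated proteins, which protect membranes and proteins during water loss, had members on both sides. LTI30 (AT3G50970) had polysomal signals of 6.87, 5.99 and 5.57 and non-polysomal signals of 4.45, 3.78 and 3.92, a loading of 2.09 (SE 0.22, limma adjusted p = 1.63e-06). COR47 (AT1G20440) had 9.06, 9.26 and 9.39 against 7.29, 7.34 and 7.61, a loading of 1.82 (SE 0.13, limma adjusted p = 2.43e-08). In both genes all polysomal arrays were above all non-polysomal ones, and LTI30 varied more between gradients than COR47. COR15A and COR15B, small cryoprotective proteins of the plastid stroma, stood at 1.74 (SE 0.14) and 1.78 (SE 0.14), and AT1G54410, which the annotation also lists as HIRD11, at 1.96 (SE 0.14). Of the 15 measured members of the list, 11 were higher and 3 lower, against 16.1% and 18% of all loci, and the median was 0.91. The share of lower members was thus near that in all loci. The median was 1.22, 1.1 and 0.53 in the 3 gradients, lowest in gradient 3.

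The 3 lower members were DI21, DI19 and COR27, which stood at −0.62 (SE 0.14) and was picked out after its values were seen. DI21 (AT4G15910), a drought-induced gene, had polysomal signals of 5.96, 5.69 and 5.27 and non-polysomal signals of 9.19, 9.14 and 8.32. The groups were far apart, with a loading of −3.24 (SE 0.16, limma adjusted p = 9.76e-10), a 9.46-fold difference. This was the largest negative loading among nuclear loci with a symbol whose arrays did not overlap. DI19 (AT1G56280), a zinc-finger protein of drought responses, had 8.73, 9.20 and 8.85 against 11.17, 11.99 and 11.55, a loading of −2.65 (SE 0.13, limma adjusted p = 9.76e-10). Its non-polysomal arrays were again all above its polysomal arrays.

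**Figure D1:**
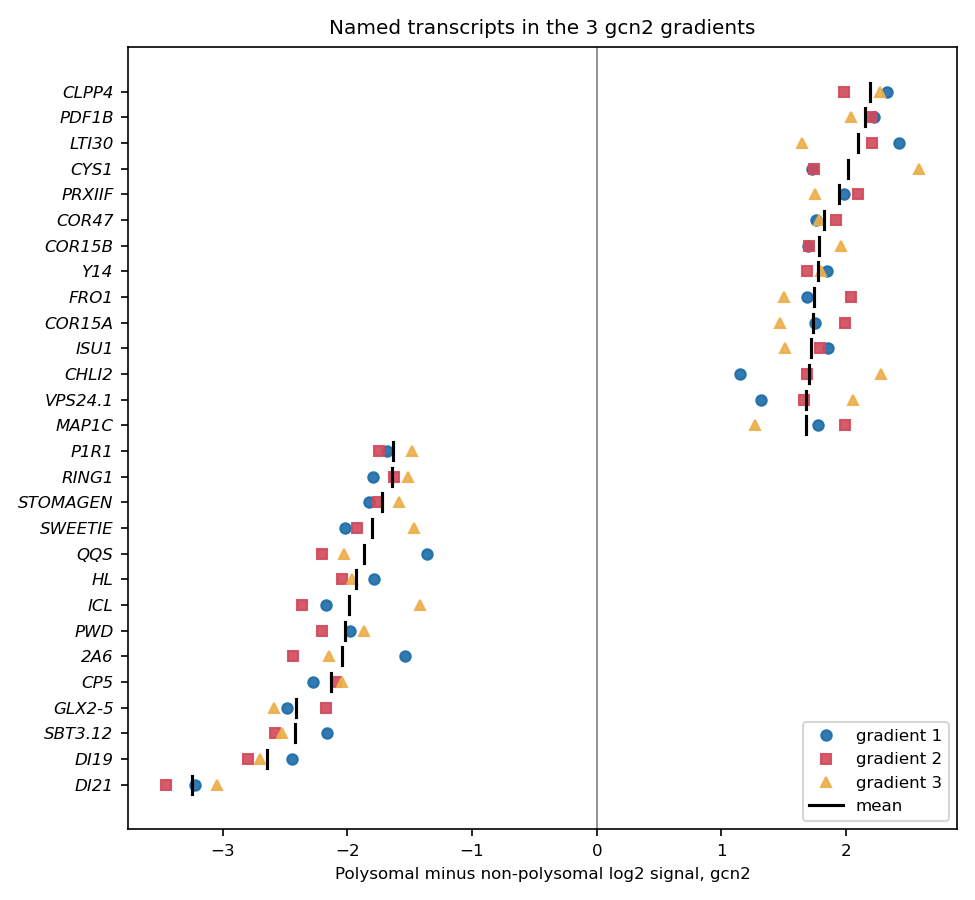
Polysomal minus non-polysomal log2 signal of the 14 nuclear loci with a symbol and the largest loading in each direction among those without overlap. There is 1 point per gcn2 gradient and a bar at the mean. The means run from 2.19 for CLPP4 to 1.68 for MAP1C and from −1.64 for P1R1 to −3.24 for DI21. The selection required all gradients of a locus to lie on the same side of 0.

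The other negative nuclear loci with a symbol held enzymes, regulators and a secreted peptide. SBT3.12 (AT4G21326), a subtilisin-like protease, had polysomal signals of 4.76, 5.16 and 5.04 and non-polysomal signals of 6.92, 7.73 and 7.57, a loading of −2.42 (SE 0.15, limma adjusted p = 7.52e-09). GLX2-5 (AT2G31350), a glyoxalase, had 6.91, 7.46 and 7.18 against 9.39, 9.63 and 9.76, a loading of −2.41 (SE 0.13, limma adjusted p = 1.86e-09). In both, the groups were apart by more than the spread within either group. CP5 stood at −2.13 (SE 0.12), HL, a phosphatase of the HAL2 family, at −1.93 (SE 0.13), SWEETIE, a protein that affects sugar metabolism, at −1.80 (SE 0.14), and RING1, a ubiquitin ligase of the RING type, at −1.64 (SE 0.14). P1R1 was at the same level of −1.64 (SE 0.13). The dioxygenase-family gene 2A6 stood at −2.04 (SE 0.15) on the probe set with the higher signal and at −1.29 on its second one, so the probe sets shared the sign but not the size.

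STOMAGEN (AT4G12970), a secreted peptide that promotes stomata, had polysomal signals of 8.19, 8.01 and 7.66 and non-polysomal signals of 10.02, 9.77 and 9.24. Its loading was −1.72 (SE 0.12, limma adjusted p = 3.13e-08), without overlap. RALFL32, a peptide of the RALF family, stood at −1.54 (SE 0.13) and CLE41, a peptide signal of the vascular cambium, at −1.48 (SE 0.17). PDF1.2, a defensin, was on the other side at 1.19 (SE 0.18), but its polysomal and non-polysomal arrays overlapped (4.91, 5.49 and 4.03 against 3.43, 4.29 and 3.14). Of 32 measured genes for secreted small peptides, 6 were higher and 5 lower with a median of −0.11, which is near the share in all loci. Without the replicate block, 3 were higher and 5 lower.

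QQS (AT3G30720), an orphan gene that affects starch, had polysomal signals of 4.39, 4.2 and 4.04 and non-polysomal signals of 5.75, 6.40 and 6.07, a loading of −1.86 (SE 0.16, limma adjusted p = 1.26e-07). ICL (AT3G21720), isocitrate lyase of the glyoxylate cycle, had 5.50, 5.02 and 5.10 against 7.67, 7.38 and 6.52, a loading of −1.98 (SE 0.16, limma adjusted p = 1.10e-07). The groups did not overlap in either gene. The name PWD, for a dikinase that phosphorylates starch, is given to AT4G24450, at −2.02 (SE 0.13), and also to AT5G26570, at −0.64 (SE 0.13), so the pair shared the sign but not the size.

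Other genes of starch and central carbon metabolism were mostly positive. TPI, triosephosphate isomerase, had signals of 11.62, 11.55 and 11.53 in polysomal and 9.90, 10.16 and 10.07 in non-polysomal RNA, a loading of 1.52 (SE 0.13, limma adjusted p = 1.49e-07). GAPC2, the cytosolic glyceraldehyde-3-phosphate dehydrogenase, stood at 0.85 (SE 0.14). Of 16 measured members, 9 were higher and 3 lower, with a median of 0.41, against 16.1% and 18% of all loci. Without the replicate block, 6 were higher and 3 lower.

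Histone transcripts were among the most positive groups. HTB1 (AT1G07790), an H2B histone, had polysomal signals of 8.88, 8.66 and 8.20 and non-polysomal signals of 7.05, 7.29 and 6.78, a loading of 1.54 (SE 0.13, limma adjusted p = 1.68e-07). The other H2B genes HTB2, HTB4 and HTB11 stood at 1.38 (SE 0.13), 1.29 (SE 0.13) and 1.01 (SE 0.13), and in each the polysomal arrays were all the higher ones. Of 7 measured histones, 5 were higher and 1 lower, against 16.1% and 18% of all loci, with a median of 1.01. The lower member was the linker histone HON4 at −0.39 (SE 0.15, limma adjusted p = 0.0463), which was no longer called without the block, without replicate 1 or without replicate 2 and was picked out after its values were seen.

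Autophagy genes were positive through the ATG8 family, ubiquitin-like proteins that coat the autophagosome membrane. ATG8D (AT2G05630) had polysomal signals of 8.35, 8.01 and 7.81 and non-polysomal signals of 7.44, 7.08 and 6.57, a loading of 1.03 (SE 0.13, limma adjusted p = 8.89e-06). These groups did not overlap, although the lowest polysomal signal, of gradient 3, was not far above the highest non-polysomal signal, of gradient 1. ATG8C stood at 1.01 (SE 0.14), ATG8H at 0.81 (SE 0.12) and ATG8F at 0.83 (SE 0.13). Of 11 measured autophagy genes, 9 were higher and 0 lower, against 16.1% and 18% of all loci, with a median of 0.81 and gradient medians of 0.92, 0.63 and 0.69. The number called higher was 7 without the replicate block and 6 to 9 when 1 gradient was left out.

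Nuclear genes for the photosystems and their antennae were positive as well. PSBY (AT1G67740), a small protein of photosystem II, had polysomal signals of 12.27, 12.32 and 12.33 and non-polysomal signals of 10.97, 10.97 and 10.62, a loading of 1.46 (SE 0.13, limma adjusted p = 2.73e-07). LHCB4.3, a minor antenna protein, stood at 1.49 (SE 0.14), PSAN, a lumenal subunit of photosystem I, at 1.07 (SE 0.12), and PSAE-1, a stromal subunit, at 0.64 (SE 0.12). Of 7 measured members, 5 were higher and 0 lower, against 16.1% and 18% of all loci, with a median of 0.64.

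In amino acid biosynthesis, 5 of the 6 genes found by symbol or synonym were higher and 1 lower, with a median of 0.88. The shares over all loci were 16.1% and 18%. Genes of this class without such a name were not included. HISN5B and IGPD, both imidazoleglycerol-phosphate dehydratases of histidine synthesis, stood at 1.32 (SE 0.13) and 0.88 (SE 0.14). BCAT4, an aminotransferase of the methionine chain elongation that leads to glucosinolates, stood at 0.88 (SE 0.12). The lower member was OASA2, of the cysteine synthase family, at −1.0 (SE 0.16). In glucosinolate synthesis, which shares BCAT4 with this list, 3 of 7 were higher and 0 lower. The glutathione transferase GSTU20 had the largest value of that list, with signals of 10.42, 10.55 and 10.54 against 8.89, 9.10 and 8.50 and a loading of 1.67 (SE 0.15, limma adjusted p = 2.21e-07).

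**Figure D2:**
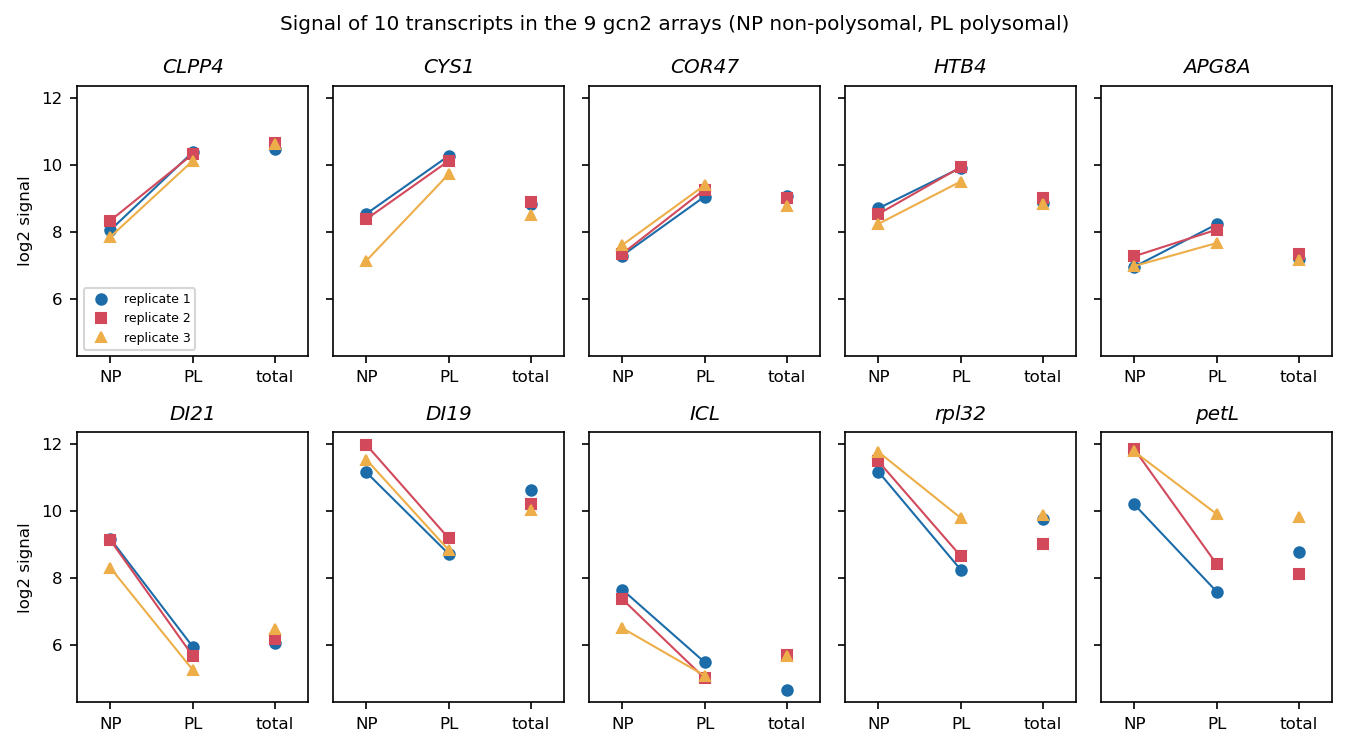
Log2 signal of 10 transcripts in the 9 gcn2 arrays, with the non-polysomal (NP) and polysomal (PL) values of a replicate joined by a line and the total RNA value beside them. The lines rise for CLPP4, CYS1, COR47, HTB4 and APG8A, with a loading of 2.19 for CLPP4, and fall for DI21, DI19, ICL, rpl32 and petL, with a loading of −3.24 for DI21.

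Plastid-encoded transcripts had the most negative loading of the groups examined. Of 69 plastid loci, 58 (84.1%) were lower and 1 (1.45%) higher, 64 had a negative mean, and the median was −1.45, with −1.42, −1.96 and −1.07 in the 3 gradients. The level of plastid transcripts itself differed widely between the gradients. The median over the 69 loci was 6.20, 8.51 and 10.13 in the polysomal arrays of gradients 1, 2 and 3, and 7.37, 10.08 and 11.14 in the non-polysomal arrays. Polysomal arrays were lower within each gradient, while the polysomal level of gradient 3 was close to the non-polysomal level of gradient 2. All 3 gradients were negative for 59 loci, against 30.3% of all probe sets. The polysomal and non-polysomal arrays, however, were apart and lower for only 10 loci, against 18.7% of all probe sets. Without the replicate block, in a fit that also took in the total RNA arrays, 11 loci were called lower and 0 higher. The number called lower was 36 with a trended and robust prior, and 47 to 56 when 1 gcn2 gradient was left out. On the BioB and BioC scale, 44 plastid loci were lower and 12 higher, with a median of −0.60.

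The clpP transcript, for the plastid-encoded partner of CLPP4 in the Clp protease, had polysomal signals of 8.62, 9.87 and 11.13 and non-polysomal signals of 11.60, 12.79 and 13.23. Its arrays did not overlap, with a loading of −2.67 (SE 0.20, limma adjusted p = 4.72e-08), the opposite sign to nuclear CLPP4. The rpl32 transcript, for a protein of the large plastid ribosomal subunit, had 8.26, 8.67 and 9.81 against 11.19, 11.50 and 11.78, a loading of −2.58 (SE 0.19, limma adjusted p = 3.77e-08). For petL, a small subunit of the cytochrome b6f complex, the signals were 7.61, 8.43 and 9.92 against 10.21, 11.86 and 11.79, a loading of −2.64 (SE 0.23, limma adjusted p = 1.68e-07). These 3 loci had the largest negative loading among plastid loci without overlap.

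Of 35 measured plastid genes for the photosystems, the cytochrome complex and the ATP synthase, 28 were lower and 1 higher, with a median of −1.48. Among them psbJ, of photosystem II, stood at −2.31 (SE 0.15) without overlap. The photosystem genes psaC and psbN stood at −2.15 (SE 0.19) and −2.97 (SE 0.27), with overlapping arrays, and both lost their call without the replicate block (limma adjusted p = 0.15 and 0.0569). The exception, named after its values were seen, was psaA, a reaction-centre subunit of photosystem I. Its signals were 4.82, 7.28 and 7.20 in polysomal and 4.50, 4.95 and 5.71 in non-polysomal RNA, a loading of 1.38 (SE 0.35, limma adjusted p = 0.00448). The psaA groups overlapped through the low polysomal array of gradient 1.

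Of 10 plastid genes for the NDH complex, which returns electrons from ferredoxin to plastoquinone, 8 were lower and 0 higher, with a median of −1.16. The ndhI and ndhC transcripts stood at −1.24 (SE 0.14) and −1.07 (SE 0.14) without overlap. The ndhD transcript had a larger value and a wide spread in level, and its polysomal signals of 3.49, 5.49 and 8.91 and non-polysomal signals of 6.10, 8.84 and 11.07 overlapped. Its loading was −2.70 (SE 0.36, limma adjusted p = 1.76e-05), and it lost its call without the replicate block (limma adjusted p = 0.226). The ndhE transcript also lost its call, at −2.28 (SE 0.34), with an adjusted p of 0.265 in limma without the block and 0.0531 with a trended and robust prior.

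Plastid ribosomal protein genes were lower in 13 of 15 and higher in 0, with a median of −1.32, and 1 was higher without replicate 3. Besides rpl32, rps18 stood at −1.59 (SE 0.16) without overlap, while rpl16 and rpl20, at −1.59 (SE 0.17) and −2.73 (SE 0.32), had overlapping arrays and lost their call without the block (limma adjusted p = 0.126 and 0.207). The remaining 9 plastid genes were lower in 9 of 9, with a median of −1.86. They included rpoA, of the plastid RNA polymerase, at −1.28 (SE 0.15), accD, of fatty acid synthesis, at −2.02 (SE 0.22), and ccsA, of cytochrome assembly, at −2.11 (SE 0.21). The accD and ccsA calls ended without the block (limma adjusted p = 0.272 and 0.156). Without it, 3 of the photosystem, cytochrome and ATP synthase genes, 2 NDH, 4 ribosomal protein and 2 remaining genes were called lower.

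Mitochondrion-encoded genes had 11 of 16 loci lower and 0 higher, against 18% and 16.1% of all loci, with a median of −0.90 and gradient medians of −0.63, −0.82 and −1.20. The cox1 transcript, for a subunit of cytochrome c oxidase, had polysomal signals of 4.55, 4.66 and 7.39 and non-polysomal signals of 6.69, 8.25 and 10.34. Its arrays overlapped through gradient 3, and its loading was −2.90 (SE 0.24, limma adjusted p = 1.00e-07). The complex I gene nad4 stood at −2.25 (SE 0.20) with overlap, ccb452, of cytochrome c assembly, at −1.16 (SE 0.15) without overlap, and ccb382, of the same pathway, at −1.97 (SE 0.26) with overlap and an adjusted p of 0.151 in limma without the block. For nad1 the probe set with the highest signal stood at −1.31 (SE 0.20), and its 7 probe sets ran from −1.55 to 0.16, so that they disagreed. The nad6 polysomal signals of 2.74, 2.93 and 2.74 lay below the lower quartile of the arrays, and its loading of −0.94 (SE 0.19) is therefore set against a signal near background. Without the block, 7 mitochondrial loci were lower. On the BioB and BioC scale, 5 were lower and 5 higher, and the median was −0.05.

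**Figure D3:**
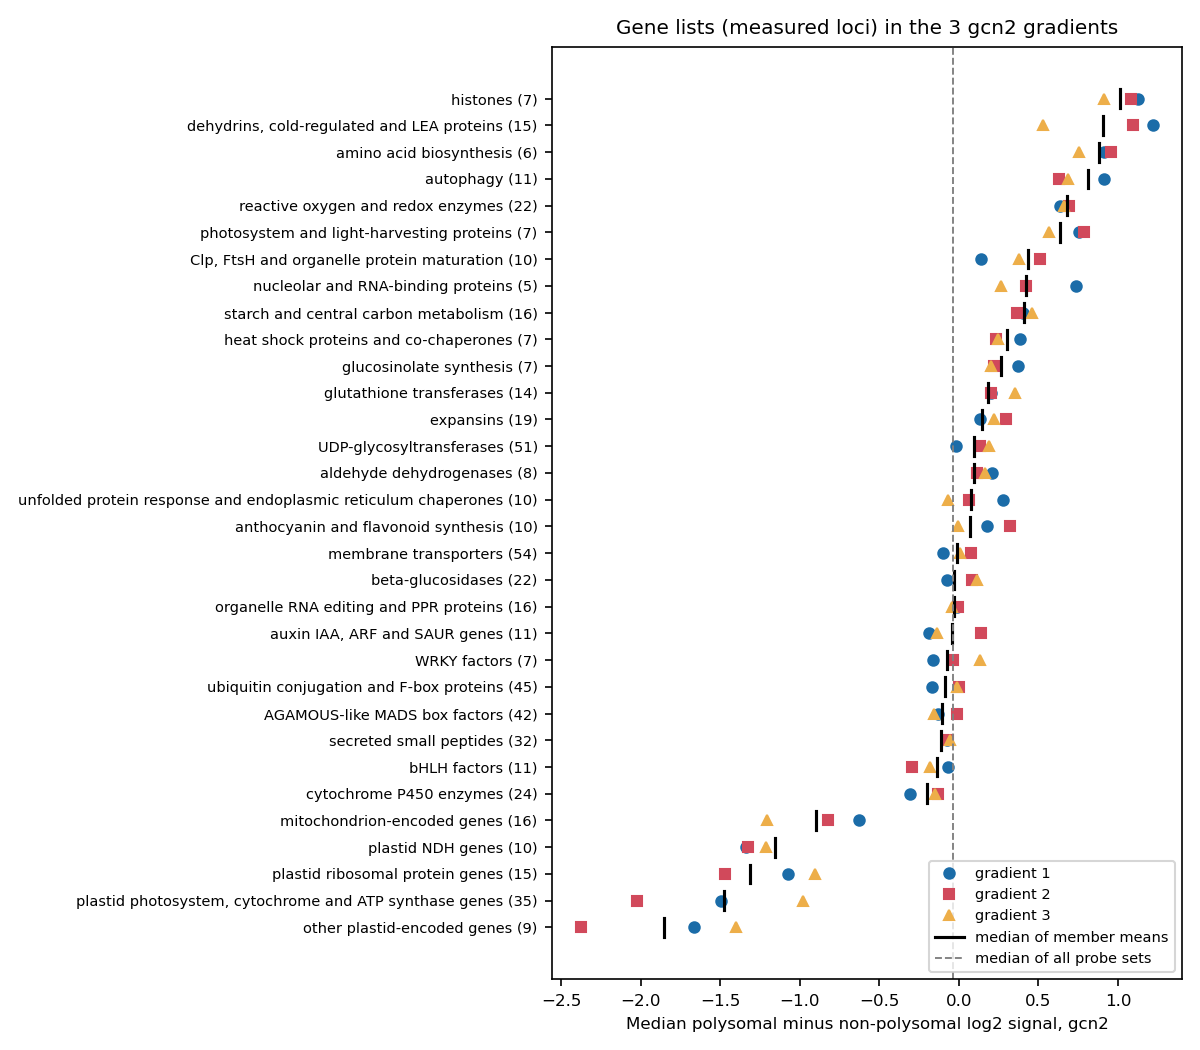
Median polysomal minus non-polysomal log2 signal of each gene list with at least 5 measured loci (number in parentheses) in the 3 gcn2 gradients, with a bar at the median of the member means and a dashed line at the median of all probe sets, −0.04. Histones lie highest at 1.01, the 4 plastid lists lowest from −1.16 to −1.86. The small negative medians of nuclear lists turn positive on the BioB and BioC scale, and the gradients differed most for plastid photosystem genes (SD of the 3 medians 0.52) and least for secreted peptides (0.00985).

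Genes close to the translation and stress machinery gave mixed values. ILA, the plant counterpart of the GCN1 protein that activates GCN2 in yeast, had polysomal signals of 5.90, 6.28 and 6.29 and non-polysomal signals of 7.21, 7.56 and 6.96, a loading of −1.09 (SE 0.15, limma adjusted p = 1.70e-05) without overlap. The initiation factor EIF4A-2, which unwinds transcripts ahead of the ribosome, had 9.51, 9.69 and 9.62 against 8.87, 9.15 and 8.82, a loading of 0.66 (SE 0.14, limma adjusted p = 9.09e-04). For cytosolic ribosomal proteins, 0 loci matched by symbol or synonym. Loci of that class listed only by locus code were not searched, so its loading was not assessed. Among 4 genes with conserved upstream reading frames, short coding stretches ahead of the main one that can hold ribosomes back, BZIP53 stood at −1.40 (SE 0.14, limma adjusted p = 8.85e-07) and PMEAMT at 0.84 (SE 0.13, limma adjusted p = 1.00e-04). BZIP53 had polysomal signals of 8.08, 7.96 and 7.65 and non-polysomal signals of 9.43, 9.54 and 8.93, without overlap. SAMDC and LHW did not pass, at −0.19 (SE 0.12) and 0.04 (SE 0.14).

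For each of the next lists, the shares over all loci were 16.1% higher and 18% lower. Over nuclear loci with a symbol they were 26.0% and 16.3%. Among heat shock proteins and co-chaperones, 3 of 7 were higher and 0 lower, with 1 lower without replicate 3. Hop1 and Hop2, which link the chaperones Hsp70 and Hsp90, stood at 1.03 (SE 0.13) and 0.86 (SE 0.14). Of 10 genes of the unfolded protein response and endoplasmic reticulum chaperones, 3 were higher and 1 lower, with a median of 0.08, and the 1 lower call was lost without the replicate block and when any gcn2 gradient was left out. The co-chaperone ATERDJ3B stood at 0.70 (SE 0.15) and the calreticulin CRT1b at 0.54 (SE 0.13). Of 5 nucleolar and RNA-binding proteins, 3 were higher and 0 lower, with RBP45B at 1.03 (SE 0.12). The proteasome subunit RPN12a stood at 0.83 (SE 0.13).

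Metabolic and cell wall families showed smaller medians. Their counts stand against 16.1% of all loci higher and 18% lower, and against 26.0% and 16.3% of nuclear loci with a symbol. Of 19 expansins, which loosen cell walls, 8 were higher and 0 lower with a median of 0.14, and the count was 5 without replicate 3 and 4 without the replicate block. EXLB1 stood at 1.26 (SE 0.14) and EXPA4 at 0.96 (SE 0.16). Of 22 beta-glucosidases, 7 were higher and 3 lower, and the share of lower ones was no larger than in all loci. The lower count was 0 without replicate 1 and 1 without replicate 2 or 3. BGLU33 stood at 1.25 (SE 0.13) and PYK10, the main enzyme of endoplasmic reticulum bodies, at 1.21 (SE 0.14), with polysomal signals of 10.03, 10.12 and 9.85 and non-polysomal ones of 8.79, 8.87 and 8.70. Of 14 glutathione transferases, 5 were higher and 1 lower, and 3 were higher without replicate 1 or without replicate 3. Anthocyanin and flavonoid synthesis had 4 of 10 higher and 0 lower, among them CHIL, a chalcone isomerase-like protein, at 0.69 (SE 0.14). Of 8 aldehyde dehydrogenases, 3 were higher and 0 lower, and 1 was higher without the block.

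Several larger families had called members on both sides, where 16.1% of all loci were higher and 18% lower. The shares were 26.0% and 16.3% of nuclear loci with a symbol. UDP-glycosyltransferases had 10 of 51 higher and 5 lower, with 6 higher without replicate 1 and 5 without the block, and UGT71C5 was the largest at −1.16 (SE 0.16). Membrane transporters had 8 of 54 higher and 5 lower, or 3 and 2 without replicate 1, 4 and 5 without replicate 2 and 2 and 4 without the block. In that list the metal transporter ZIP6 stood at −0.97 (SE 0.13) and the sugar transporter SWEET1 at 0.72 (SE 0.14). Ubiquitin conjugation and F-box proteins had 6 of 45 higher and 9 lower, or 4 lower without replicate 1 and 5 without the block. The conjugating enzymes UBC28 and UBC27 stood on opposite sides, at −1.21 (SE 0.13) and 0.93 (SE 0.12). Organelle RNA editing and PPR proteins had 3 of 16 higher and 1 lower, with CRR21, an editing factor for a plastid NDH transcript, at 1.17 (SE 0.15), and 0 lower without replicate 2.

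The counts for transcription factors and for the 2 other lists given with them stand against 16.1% of all loci higher and 18% lower. For nuclear loci with a symbol, these shares were 26.0% and 16.3%. Of 7 WRKY factors, 0 were higher and 0 lower in all gradients together, and 1 was lower without replicate 3. Of 11 bHLH factors, 0 were higher and 3 lower, with bHLH121, a regulator of iron uptake, at −0.71 (SE 0.14), a sign that turns on the BioB and BioC scale. Of 42 AGAMOUS-like MADS box factors, 1 was higher and 4 lower, and 32 had both fractions below the lower quartile. Without such dim probe sets 10 were left, of which 1 was higher and 2 lower. Over all 42, the lower count was 2 without replicate 1 or without replicate 3, and 2 were higher without replicate 3. AGL87 and AGL26 stood at 1.16 (SE 0.15) and −1.05 (SE 0.14). Of 24 cytochrome P450 enzymes, 1 was higher and 6 lower with a median of −0.20, and the lower count was 3 without replicate 1 and 2 without replicate 2, with 0 higher in both. Among 11 auxin-related genes, 2 were higher and 2 lower, or 1 and 1 without replicate 2 and 1 and 0 without replicate 3, and GH3.3, which conjugates auxin to amino acids, stood at 0.58 (SE 0.14).

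Loci without a symbol held some of the largest values. AT1G64370 had polysomal signals of 10.15, 10.41 and 10.11 and non-polysomal signals of 7.22, 7.07 and 7.08, a loading of 3.10 (SE 0.14, limma adjusted p = 3.98e-10). AT4G34290, AT4G19200, AT5G45350 and AT1G18210 followed at 2.79, 2.61, 2.46 and 2.39 (SE 0.12, 0.13, 0.12 and 0.13). On the negative side AT5G58570 had polysomal signals of 5.75, 5.71 and 5.27 and non-polysomal signals of 9.28, 8.96 and 8.47, a loading of −3.33 (SE 0.14, limma adjusted p = 3.98e-10). AT1G50290, AT3G27340, AT4G03156 and AT5G47435 stood at −3.23, −3.21, −3.17 and −3.0. These 10 loci were picked only among called loci whose polysomal and non-polysomal arrays did not overlap, so their separation follows from the selection.

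Total RNA lay between the fractions for most of the named transcripts. Its mean was between the polysomal and non-polysomal means for 10 of the 14 positive and 13 of the 14 negative nuclear loci with a symbol. The exceptions included CLPP4, at 10.48, 10.66 and 10.62 in total RNA against a polysomal mean of 10.27, and STOMAGEN, at 7.32, 7.47 and 7.39 against a polysomal mean of 7.95. Over all calls the total RNA mean lay between the fractions for 41.9% of the higher and 49.8% of the lower probe sets. It was nearer to the polysomal than to the non-polysomal mean for 70.7% of the higher, 74.4% of the lower and 65.2% of all probe sets.

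Loading varied with the annotated length of the gene. Among 12223 nuclear protein-coding loci, 16.4% of genes from 3000 to under 4000 bp, 12.4% of those from 4000 to under 6000 bp and 7.39% of those of 6000 bp or more were higher, and 20.4%, 26.5% and 37.8% were lower. The medians of the same bins were −0.06, −0.12 and −0.23. It was below 0 in each of the 3 gradients for the longest genes, at −0.31, −0.29 and −0.16. Genes from 1000 to under 2000 bp had 19.9% higher and 15.7% lower calls, genes from 2000 to under 3000 bp 21.3% and 18.7%, and those under 1000 bp 9.55% and 14.2%. Without probe sets below the lower quartile in both fractions, genes under 1000 bp had 18% higher and 25.3% lower calls, and genes from 1000 to under 2000 bp 26.7% and 19.8%, so the order of these bins in lower calls turned. The rank correlation between length and loading was only −0.06 across loci, which share the same arrays. In wild type the medians of the bins, from the shortest to the longest genes, were −0.14, −0.10, −0.07, −0.05, −0.08 and −0.14. The longest genes there thus stood level with the shortest. Whether the length pattern differed between genotypes was not tested. Lengths were taken from the RefSeq TAIR10.1 annotation and include introns.

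**Figure D4:**
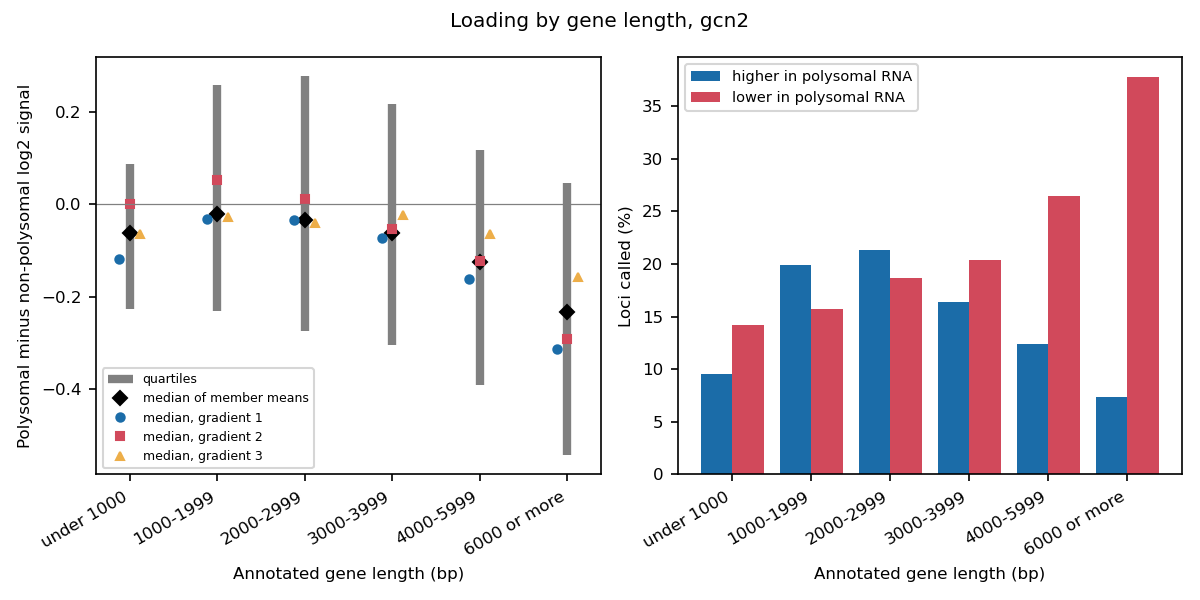
Loading in gcn2 by annotated gene length (bp) of nuclear protein-coding loci. The left panel shows the quartiles and median of the polysomal minus non-polysomal log2 signal and the median in each gradient, and the right panel the percentage of loci called in each direction, with 7.39% higher and 37.8% lower among genes of 6000 bp or more.

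Wild type, fitted in the same model, served to ask whether these values were particular to gcn2. In wild type 8713 probe sets (38.3%) were called, 19.6% of all higher and 18.7% lower. Of the probe sets called in gcn2, 74.9% were also called in wild type, and of those called in wild type, 73.2% were also called in gcn2. The sign was the same for 6370 of the 6379 probe sets called in both. Loading in the genotypes correlated across probe sets at 0.894 (Pearson) and 0.800 (Spearman), a description over 22746 probe sets that share arrays. All 28 nuclear loci with a symbol named above for the largest values had the same sign in wild type and were called there.

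The test of the difference itself passed for 3 probe sets (0.0132%), all more negative in gcn2, while 2270 had an unadjusted p under 0.05. The first was AT4G03156, with a loading of −3.17 in gcn2 and −0.03 in wild type, a difference of −3.13 (SE 0.19, limma adjusted p = 4.14e-07). In gcn2 its polysomal signals were 4.38, 4.34 and 3.29 and its non-polysomal signals 7.43, 7.39 and 6.67. In wild type the polysomal signals were 2.52, 1.99 and 2.52 and the non-polysomal signals 2.81, 1.94 and 2.37, all below the lower quartile of the arrays. The wild-type loading is therefore one between signals near background. AT3G30200 stood at −1.59 in gcn2 and −0.19 in wild type (difference −1.40, SE 0.18, limma adjusted p = 0.00867), with wild-type fraction means of 2.74 and 2.93, again below that quartile. A probe set given no gene here stood at −2.08 and −0.31 (difference −1.77, SE 0.24, limma adjusted p = 0.00867), with wild-type fraction means of 2.86 and 3.16.

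Of the 581 loci in the gene lists, 0 differed between genotypes, with a smallest limma adjusted p of 0.0812. That value belonged to ICL, with −1.98 in gcn2 and −0.65 in wild type, and QQS, outside the lists, had the same adjusted p with −1.86 and −0.60. For plastid loci the wild-type gradient medians were −1.72, −0.40 and −0.72, against −1.42, −1.96 and −1.07 in gcn2, so the ranges overlapped.

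**Figure D5:**
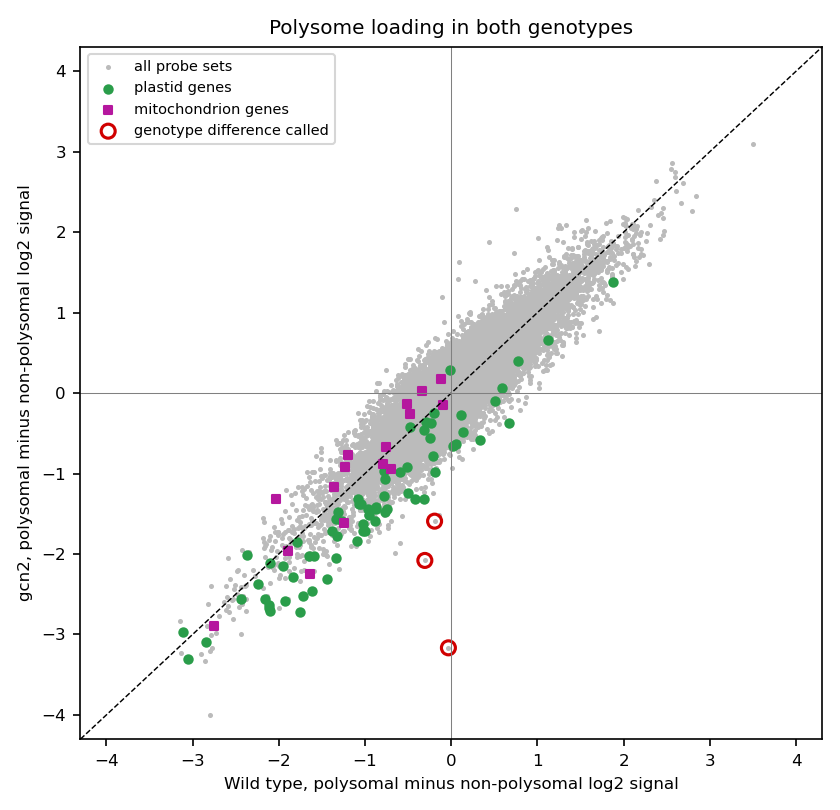
Polysomal minus non-polysomal log2 signal in gcn2 against that in wild type for 22746 probe sets, with plastid and mitochondrial genes coloured and a dashed line of equality. Red circles mark the 3 probe sets that passed the test of the genotype difference, all with wild-type signals near background, which lie at −3.17, −2.08 and −1.59 in gcn2 and between −0.31 and −0.03 in wild type.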

How the data were processed

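The deposited log2 values per probe set were used as the authors made them. The submitters' processing notes name RMA, affy and MAS5 with no role, so the summarization method is not given in the sources used here. Gene names came from GEO's annotation of the platform, which gave 1 gene for 13513 tested probe sets, several for 503 and none for 8730. Of these, 13436 matched the RefSeq TAIR10.1 gene table. They stood for 13355 loci, each read by its probe set with the highest mean over all 18 arrays. A symbol was given for 1556 of these loci. Gene lists were filled by symbol or synonym, so their measured members can be only a part of a family. No 2 of the 18 arrays were identical. limma 3.58.1 (R 4.3.3) was fitted to the 12 fraction arrays with each of the 6 gradients as a block, and p-values were adjusted after Benjamini and Hochberg over 22746 probe sets. Errors are moderated standard errors. The smallest p of an exact test is 0.1 for 3 arrays a side and 0.25 for 3 paired gradients. Arrays of equal number deviated together from their group means (0.588, 0.321 and 0.513 in gcn2, 0.503, 0.225 and 0.498 in wild type), so the numbers pair the arrays. A pair is called a gradient here, although the titles give only the number and do not say that both came from 1 gradient. Named were the 14 largest differences per direction among nuclear loci with a symbol. These loci were called, went one way in all gradients and did not overlap. By the same rule, the 3 largest for each organelle and the 5 largest for loci without a symbol were named. Up to 4 members of each list with at least 5 loci were added. Members and lists were chosen with earlier results of these data known. The fit was tested on simulated data. Alternatives were no block, other scalings, filters and priors, and each gradient left out. The fit without a block was made on all 18 arrays, so the total RNA arrays also entered its spread.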

Additional observations from a re-analysis of the deposited data

Results flagged for a closer look

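The loading of 3 probe sets passed the test of a difference between gcn2 and wild type. In all 3, both wild-type fraction means lay below the lower quartile of the arrays (3.40). They were 2.34 and 2.37 for AT4G03156, 2.74 and 2.93 for AT3G30200, and 2.86 and 3.16 for the probe set given no gene here. The wild-type value is then a difference between signals near background, so the test does not show a change of loading. Total RNA differed too, with means of 4.60 in gcn2 and 2.23 in wild type for AT4G03156, 3.83 and 2.66 for AT3G30200, and 5.20 and 2.91 for the third. The values behind the test, with that limit, were as follows. AT4G03156 differed by −3.13, which passed in 15 of 15 settings run for it, with limma adjusted p from 1.78e-23 to 0.0135. AT3G30200 differed by −1.40 and passed in 12 of 15 settings, with limma adjusted p from 0.00333 to 0.132. It did not pass without the replicate block (0.132), without gcn2 replicate 2 (0.0502) or without wild type replicate 2 (0.0767). The probe set given no gene here differed by −1.77 and passed in 11 of 15 settings, with limma adjusted p from 2.95e-06 to 0.661. It did not pass without the replicate block (0.661), with the replicate number as a block over both genotypes (0.284), or without wild type replicates 1 (0.0537) and 2 (0.0767).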

How the results depend on the processing

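The 8516 calls of gcn2 loading became 6492 without the replicate block, of which 6461 were among the 8516. Across the alternative fits at the same threshold, the calls stayed within 6492 and 8694 in all but 1. That one was the centring on BioB and BioC controls, which gave 19639 calls, 19186 higher and 453 lower, and 20460 calls of wild type loading. The same centring turned the sign of bHLH121 (0.14), bHLH104 (0.40), AGL30 (0.29), CYP84A4 (0.18), UGT71C4 (0.069), UGT72B3 (0.19) and GSTU18 (0.22), which follows from its shift of every probe set. The 3 calls of the genotype difference became 1 without the replicate block, 11 with control centring, 11 with a trended and robust prior, 7 with array weights, and 1 to 6 when 1 gradient was left out, with 1 without wild type replicate 2 and 6 without gcn2 replicate 3. The cause was not tested. For plastid loci, 58 lower calls became 11 without the block. The fit without the block also took in the total RNA arrays, so this loss cannot be credited to pairing alone. Of 127 named loci, 10 lost their call without the block, 9 of them plastid or mitochondrial. With control centring 10 others lost it while keeping their sign, and so did the 7 loci whose sign turned. The ndhE transcript lost it with the trended prior. The planned split by protein length was not run, and gene length, chosen after seeing the data, stands in its place. Signals below the lower quartile limit 5181 probe sets.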

Other observations

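Of 989 measured pseudogene loci, 3 were higher and 56 lower in polysomal RNA of gcn2, which is 0.303% and 5.66%, against 17.6% and 18.6% of 12223 nuclear protein-coding loci. Many of these signals were low: 75.7% of the pseudogenes had both fractions below the lower quartile of the arrays, against 22.8% of the protein-coding loci. Among the 240 pseudogenes above that level, 2 were higher and 40 lower (0.833% and 16.7%), with a median of −0.08, against 22.5% and 23% of 9432 protein-coding loci above it. Nuclear loci with a symbol had 26.0% higher and 16.3% lower calls, against 16.2% and 17.6% of all 13270 nuclear loci. The split by pseudogene was added after seeing the data.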
